A study of Mus musculus with 4 samples.

Results

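DNA methylation was examined at 10 nuclear receptor genes of gut maturation, Thra, Thrb, Nr3c1, Vdr, Nr1h4, Nr1i2, Ppara, Pparg, Rxra and Nr5a2, out of 21410 protein-coding autosomal genes of the GENCODE M1 annotation (mm9). The genes were taken from a list of names, without a cut on measured values. That list was chosen with earlier results of these data known. All 10 were found, and their windows, from 5 kb upstream of the gene to its end, held 2198 of the 4076373 bins of 200 bp tested on the autosomes. Whole-genome bisulfite sequencing was applied to 2 cell populations of the colon of C57 mice at 2 ages, postnatal day 0 (P0) and postnatal day 21 (P21), the end of suckling. Intestinal stem cells (ISCs) were sorted for the EGFP that the Lgr5-EGFP-CreER knock-in allele makes in Lgr5-expressing cells. Differentiated cells were sorted as positive for the epithelial protein EpCAM and negative for EGFP. Carriers of the allele were crossed with wild-type C57 mice, with litters pooled for P0 and Lgr5-EGFP-positive offspring pooled for P21. The mix of genotypes could thus differ between the ages. The 2 populations at the 2 ages made 4 groups, each with 1 library from pooled animals. With 1 library a group there was no replicate check, and every test below compares libraries and not conditions.

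Nuclear receptors are transcription factors that a small lipid-soluble ligand switches on. Thyroid hormone, glucocorticoids, vitamin D, bile acids and fatty acids all act through receptors of this family, and many of these receptors bind DNA as a pair with the retinoid X receptor. In the gut of rodents, thyroid hormone and glucocorticoids are known for their role in the maturation of the epithelium around weaning, and the receptors for bile acids, fatty acids and vitamin D serve the handling of the diet.

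At the 10 genes, the bins that lost methylation from P0 to P21 by the test below far outnumbered those that gained it, and Vdr, the vitamin D receptor, held more of these bins than any other of the 10. A maturation-associated differentially methylated region (mDMR) is here a 200-bp bin whose methylation level, the share of methylated calls, differed by more than 15 points between P0 and P21 with a Benjamini-Hochberg adjusted p below 0.05 in Fisher's exact test. In ISCs 155 of the 2198 bins (7.05%) were mDMRs, against 2.55% of all autosomal bins. Losses made up 128 of them (5.82%, against 1.48% of all bins) and gains 27 (1.23%, against 1.07%). In differentiated cells 174 bins (7.92%, against 2.85%) were mDMRs, with 138 losses (6.28%, against 1.86%) and 36 gains (1.64%, against 0.992%). Losses were thus above the background share in both populations, while gains were near it in ISCs and above it in differentiated cells.

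The same bins were often called in both populations. Losses in both populations numbered 85 (3.87%, against 0.673% of all bins), gains in both numbered 13 (0.591%, against 0.255%), and 0 bins were called in opposite directions. Such opposite calls were rare everywhere, with 320 among all 4076373 autosomal bins. Vdr alone held 51.8% of the shared losses. In the other 9 genes, 41 of 1968 bins (2.08%) were lost in both populations, 77 bins (3.91%) in ISCs and 80 (4.07%) in differentiated cells, so that the share of losses stayed above the background without Vdr. Shared gains in these 9 genes numbered 7 (0.356%). That was near the 0.342% in the windows of all autosomal protein-coding genes. Of the 98 bins called in the same direction in both populations, 80 lay in introns of the transcript with the longest coding sequence (called the main transcript below), 10 in introns of another transcript, 7 in exons and 1 upstream. This placement was near that of the bins tested. Gene bodies, outside promoter and last exon, held 90 of the 98 shared bins. They also held 1968 of all 2198 bins, by coincidence the number of bins in the other 9 genes. A further 133 bins were called in 1 population only, and in 114 of these the other population changed in the same direction. For this last count no share over all bins was taken. Of the mDMRs in ISCs, 63.2% were also called in the same direction in differentiated cells, against 36.3% over all autosomal bins. Of those in differentiated cells, 56.3% were also called in ISCs, against 32.5%. Without Vdr, 48 bins were shared, among 97 mDMRs in ISCs and 110 in differentiated cells.

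**Figure D1:**
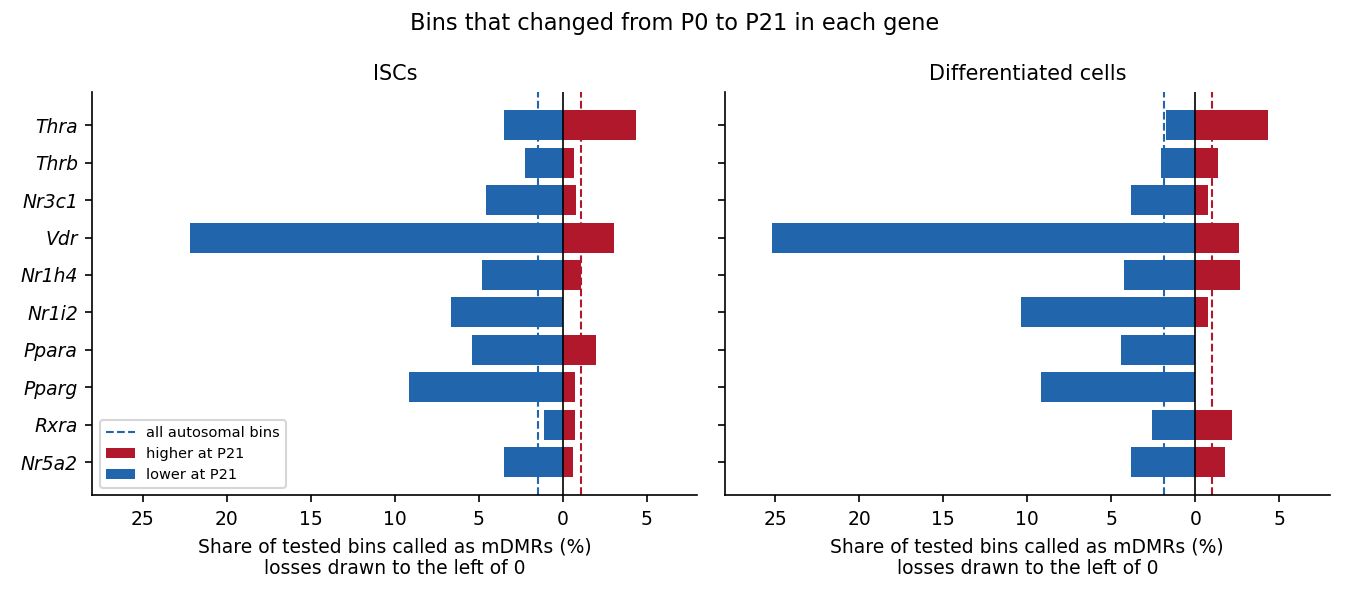
Share of tested bins called as mDMRs in each gene, in percent, for ISCs (left panel) and differentiated cells (right panel). Bars to the left of 0 are losses from P0 to P21, bars to the right are gains, and dashed lines mark the shares over all 4076373 autosomal bins. The bars of Vdr reach 51 losses in ISCs and 58 in differentiated cells among its 230 bins, further than those of any other gene shown.

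Stretches of DNA from 4 genes are shown because they carry the largest shared loss when both populations are added (Vdr) or lie in the run of shared losses of a gene described below (Thra, Pparg, Nr5a2). All are 200-bp bins of mm9, printed on the plus strand from 5′ to 3′, with the CpGs that were measured in capitals. They are chr15:97730201-97730400 (Vdr), chr11:98611601-98611800 (Thra), chr6:115347601-115347800 (Pparg) and chr1:138812001-138812200 (Nr5a2).
Vdr: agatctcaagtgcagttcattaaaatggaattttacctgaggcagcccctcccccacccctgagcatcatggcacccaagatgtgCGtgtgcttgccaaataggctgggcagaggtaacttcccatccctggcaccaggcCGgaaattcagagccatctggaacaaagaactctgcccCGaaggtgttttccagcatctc
Thra: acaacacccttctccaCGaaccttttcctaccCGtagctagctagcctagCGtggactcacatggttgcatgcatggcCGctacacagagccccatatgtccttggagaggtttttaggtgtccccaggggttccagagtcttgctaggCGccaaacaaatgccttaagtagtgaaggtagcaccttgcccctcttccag
Pparg: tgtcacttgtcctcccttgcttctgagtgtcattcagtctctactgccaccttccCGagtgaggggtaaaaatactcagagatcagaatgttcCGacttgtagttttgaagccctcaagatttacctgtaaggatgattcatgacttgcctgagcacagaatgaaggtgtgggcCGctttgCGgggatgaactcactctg
Nr5a2: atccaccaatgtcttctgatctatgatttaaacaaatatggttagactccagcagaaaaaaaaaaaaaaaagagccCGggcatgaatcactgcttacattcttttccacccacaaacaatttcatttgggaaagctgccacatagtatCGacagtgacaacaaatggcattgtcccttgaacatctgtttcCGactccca
All 4 were intronic, held between 3 and 5 CpGs and lay outside CpG islands. The letters AGGTCA, the half-site that many nuclear receptors bind, were searched on both strands. They were present in 16 of the 98 shared bins (16.3%), in 284 of the 2198 bins of the 10 genes (12.9%) and in 11.9% of all autosomal bins. Vdr held 11 of the 16, among its 50 shared bins (22.0%), so that the higher share rested on this gene. The search is a description of letters and not of binding.

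The vitamin D receptor, which mediates the action of calcitriol on intestinal calcium uptake, is encoded by Vdr (ENSMUSG00000022479.9) on the minus strand of chromosome 15. In the Vdr bin printed above, which lies 8440 bp downstream of the transcript start, the 2 P0 libraries had methylation levels of 86.5% (ISCs, 37 calls) and 93.4% (differentiated cells, 151 calls), and both P21 libraries were at 0% (51 and 103 calls). A count of 0 allows a level of up to 5.88% in ISCs and 2.91% in differentiated cells, taken here and below as 3 calls of the total, for counting error only. Both P0 libraries were thus nearly fully methylated and both P21 libraries had no methylated call (adjusted p = 8.65e-16 in ISCs and 6.83e-56 in differentiated cells, Fisher's exact test).

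Loss at Vdr ran through intron 1 (97718920 to 97738665), the intron between exons 1 and 2. Its 78 bins beyond the promoter went from a pooled level of 69.5% to 35.6% in ISCs, and differentiated cells went from 70.8% to 34.2%. The difference was -33.9 points in ISCs (95% interval from -35.6 to -32.2) and -36.6 points in differentiated cells (-38.0 to -35.2), where intervals for pooled levels cover counting error only. Of these bins 45 were called as losses in ISCs, 50 in differentiated cells and 41 in both, and 0 were called as gains. The level was lower at P21 in 72 of the 78 bins in ISCs and in 74 in differentiated cells.

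The loss was deepest near the promoter and smallest towards exon 2, but it did not shrink evenly in between. For bins centred between 1040 and 3840 bp from the start, the level fell from 64.0% to 6.50% in ISCs and from 61.7% to 4.33% in differentiated cells. Between 4040 and 7840 bp it went from 69.0% to 30.1% and from 71.7% to 32.4%, a smaller change than between 8240 and 11840 bp, where it went from 74.4% to 25.6% and from 73.4% to 23.5%. Between 12240 and 15840 bp it went from 64.7% to 49.0% and from 66.9% to 47.8%, and in the last part, from 16040 bp on, from 74.1% to 60.4% and from 76.0% to 60.8%. The 118 bins from exon 2 to the end of intron 9 did not share the loss: their pooled level was 78.4% at P0 and 82.9% at P21 in ISCs, and 79.9% and 82.0% in differentiated cells.

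**Figure D2:**
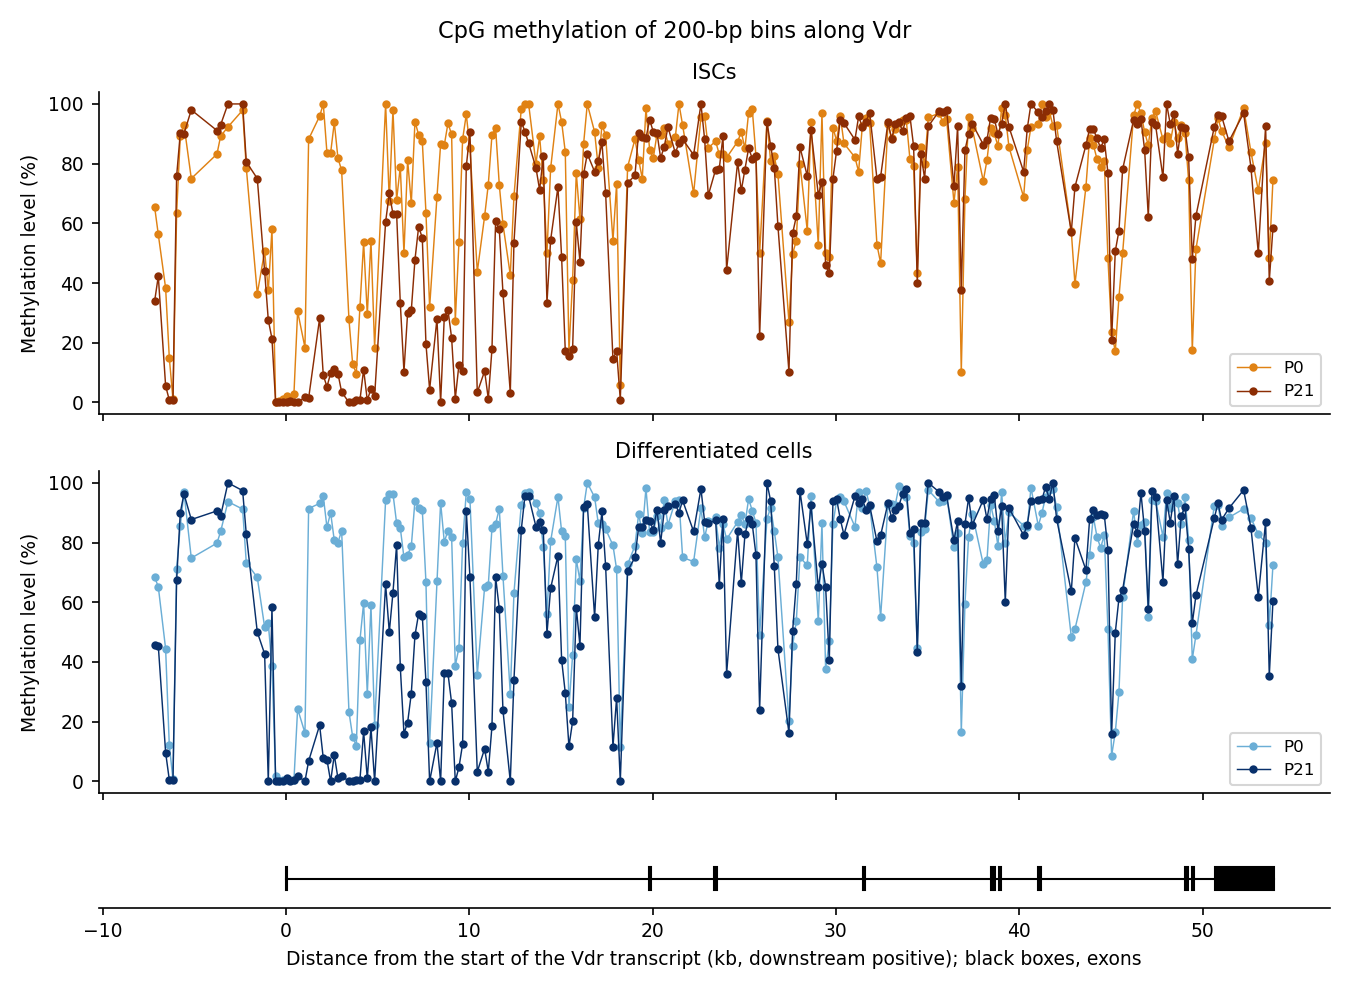
Methylation level of each tested 200-bp bin along Vdr, in percent, against the distance of the bin from the transcript start in kb, for ISCs (top) and differentiated cells (middle), with P0 in the lighter and P21 in the darker colour. The exons are drawn below. The P21 points lie under the P0 points in most of intron 1 (72 of 78 bins in ISCs and 74 in differentiated cells), where the pooled level went from 69.5% to 35.6% in ISCs. From exon 2 to the end of intron 9 the pooled level in ISCs went from 78.4% to 82.9%. That stretch held 6 shared gains and 1 shared loss.

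Adjacent shared losses formed 8 runs of at least 2 bins in this intron, 33 bins in all. The longest, 8 bins at 97729001 to 97730600, went from 75.5% to 19.6% in ISCs, and differentiated cells matched this closely with 75.8% and 19.7%. The next, 7 bins at 97735601 to 97737000, fell further, from 87.4% to 11.4% in ISCs, and differentiated cells went from 86.6% to 6.38%. A run of 5 bins at 97733801 to 97734800 went from 38.7% to 3.53% and from 44.4% to 6.34%. In each of these runs both P21 libraries were below both P0 libraries, and the 95% intervals of the ages did not overlap. The runs were built from bins already called as losses in both populations, so this separation follows largely from their choice.

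The other 5 Vdr runs differed in how far they fell. The 4 bins at 97731001 to 97731800 fell to a middle level, from 87.2% to 52.4% in ISCs and from 89.1% to 53.3% in differentiated cells. The 3 bins at 97727401 to 97728000 went from 72.1% to 10.2% and from 68.8% to 10.1%. These lie beside the start of a shorter Vdr transcript at 97727244, around which the pooled level of 8 bins changed by -38.8 points in ISCs (-42.9 to -34.5), and by -41.8 points in differentiated cells (-45.3 to -38.1). The 3 runs of 2 bins, at 97720601, 97723401 and 97732001, ended at 15.9% to 39.4% in ISCs and at 18.5% to 37.2% in differentiated cells. Another 8 single bins of the intron were lost in both populations, with changes from -86.8 to -23.2 points in ISCs, and from -84.6 to -15.7 points in differentiated cells.

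The Vdr promoter (1 kb to either side of the start) was already low at P0. Its pooled level went from 7.10% to 1.29% in ISCs, and differentiated cells went from 2.89% to 0.688%. As a mean of the bin levels, the change was -9.32 points in ISCs and -6.39 points in differentiated cells. Around another start of the gene, at 97741061, the change was 7.01 points in ISCs and 4.33 points in differentiated cells, so that the direction turned there, with 95% intervals that include 0. In the promoter of the main transcript, the bin of intron 1 at 97738001 was a shared loss, from 30.5% to 0% (up to 2.19% allowed by a count of 0) in ISCs and from 24.3% to 1.79% in differentiated cells. Upstream, the bin at 97745201 went from 38.3% to 5.56% and from 44.4% to 9.64%, and in intron 3 the bin at 97714601 went from 82.0% to 44.4% and from 81.1% to 36.0%.

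Vdr also held 6 of the 13 shared gains, all in the distal introns 4 and 7. The 2 bins at 97693201 to 97693600 rose from 24.2% to 54.0% in ISCs and from 19.4% to 53.3% in differentiated cells. In the same intron 7 the bin at 97693801 rose from 48.3% to 76.8% and from 51.0% to 77.6%, and the bin at 97695601 from 39.6% to 72.2% and from 51.0% to 81.5%. In intron 4 the 2 bins at 97701601 to 97702000 rose from 44.0% to 67.3% and from 38.6% to 58.9%. The change of the last exon was -5.96 points in ISCs (-9.89 to -2.01) and -6.69 points in differentiated cells (-9.86 to -3.53). Among the 5882 genes with at least 100 tested bins, Vdr ranked 3 by its share of bins lost in both populations, 19.1%, where the median gene had 0.450%. Pparg ranked 68 (5.63%), Nr1i2 199, Ppara 242, Nr3c1 312, Nr5a2 873, Thra 890, Nr1h4 1022, Rxra 1499 and Thrb 2392 (0.682%). Genes with fewer tested bins were not ranked. Among them Nr2e3, another nuclear receptor gene, had 17 of 72 bins lost in both populations, a larger share than Vdr.

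Thra (chromosome 11, plus strand) encodes forms of the α receptor for thyroid hormone. Its main transcript here, chosen for the longest coding sequence (1476 bases), has 10 exons, and the last exon below is that of this transcript. Which form of the receptor the cells make was not examined. Thra was the only one of the 10 genes with a shared gain in its last exon. The 3 adjacent bins at 98629401 to 98630000 in exon 10 formed part of a CpG island with 34 CpGs. In ISCs their level rose from 25.7% to 64.2%, and differentiated cells rose from 25.1% to 64.7%. The 2 populations lay within 1 point of each other at each age, and the ages were 38.5 points apart in ISCs (32.2 to 44.3) and 39.6 points apart in differentiated cells (36.0 to 43.1). Adjusted p values of the 3 bins ran from 3.3e-17 to 0.0156 in ISCs and from 1.91e-58 to 5.82e-10 in differentiated cells (Fisher's exact test), with the smallest gain in the bin nearest the gene's end.

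This stretch held 530 exon bases, of which 366 were coding in the main Thra transcript, and it also lay within Nr1d1, the gene of the clock repressor REV-ERBα on the opposite strand. Methylation of a CpG there belongs to both genes. Over the whole last exon of Thra the level was higher at P21 by 25.5 points in ISCs (20.4 to 30.4) and by 34.3 points in differentiated cells (31.1 to 37.4). The promoter of Thra, a CpG island, stayed between 0.324% and 0.785% in the 4 libraries, and the gene body between 48.2% and 49.8%. In intron 1, the 2 bins at 98611401 to 98611800, the second of which is printed above, fell from 31.2% to 2.27% in ISCs and from 30.1% to 1.75% in differentiated cells.

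Thrb (chromosome 14, plus strand), the β receptor for thyroid hormone, held few mDMRs, and those shared by both populations were single bins. Of its 440 bins, 13 were mDMRs in ISCs (2.95%) and 15 in differentiated cells (3.41%), close to the background shares. Of these, 4 were shared, all far upstream of the main transcript's start, in introns of a longer transcript. The bin at 18530201 fell from 85.6% to 41.5% in ISCs and from 78.0% to 30.2% in differentiated cells, the largest change of the 4. The bin at 18515001 fell from 89.0% to 55.9% and from 83.9% to 64.3%, and the bin at 18755801 from 25.9% to 0% (up to 2.56% allowed) and from 26.4% to 0.495%. The bin at 18707001 rose from 52.0% to 84.7% and from 52.5% to 83.6%. The island at the start of the longer transcript stayed between 0.574% and 1.07%, and the promoter of the main transcript between 89.3% and 93.7%. The use of these starts in the cells was not examined. Another start, at 18833799, had 2 tested bins and went from 84.7% to 81.7% in ISCs, but from 82.6% to 95.8% in differentiated cells, where 1 of the bins was called as a gain.

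Nr3c1 (chromosome 18, minus strand) encodes the glucocorticoid receptor. Its main transcript here begins with the coding exon that holds the start codon, and the 1 kb to either side of it had the largest promoter change among the 10 genes. ISCs went from 45.4% to 24.9%, and differentiated cells went from 38.9% to 25.1%, which are changes of -20.5 points (-26.4 to -14.5) and -13.8 points (-18.3 to -9.27). The 2 shared bins of this exon, at 39646001 to 39646400, fell from 61.0% to 22.6% and from 51.2% to 17.4%. The 4 upstream starts of the gene, in a CpG island, held between 0.307% and 1.54% in the 4 libraries, so that the change lay beside the island and not in it. In intron 1, single bins at 39645001 and 39627201 fell from 65.8% to 36.8% and from 66.7% to 29.3% in ISCs, and from 55.1% to 30.1% and from 63.1% to 31.3% in differentiated cells. A bin of intron 2, at 39588001, rose from 22.7% to 53.6% and from 25.9% to 58.5%. The last exon of the main transcript held 0 tested bins, so Nr3c1 is missing from the last-exon values.

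Nr1h4 (chromosome 10, minus strand) encodes FXR, the bile acid receptor. Of its 3 shared losses, 2 lay near the start of a longer transcript at 88996330 and none at the main promoter, which stayed between 0.935% and 1.83%. Around the upstream start the pooled level of 6 bins went from 23.2% to 5.15% in ISCs, and differentiated cells went from 19.3% to 5.26%. The bin at 88996001 fell from 28.5% to 2.03% and from 19.9% to 1.96%, and the bin at 88995401 from 60.9% to 19.2% and from 55.4% to 24.2%. Further from this start, the bin at 88990001 fell from 76.7% to 48.6% and from 78.4% to 45.6%. Of the 188 bins of the gene, 11 (5.85%, against 2.55% of all bins) were mDMRs in ISCs and 13 (6.91%, against 2.85%) in differentiated cells.

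Nr1i2 (chromosome 16, minus strand) encodes PXR, which senses drugs and other foreign compounds. All 5 of its shared bins were losses in intron 1. The 2 adjacent bins at 38283001 to 38283400 fell from 79.3% to 42.8% in ISCs and from 79.4% to 41.1% in differentiated cells. In the same intron the bin at 38282001 fell from 78.6% to 51.2% and from 81.8% to 57.1%. Closer to the promoter, the bin at 38290201 fell from 79.6% to 49.3% and from 89.7% to 43.2%, and the bin at 38291801 from 37.0% to 4.44% and from 29.4% to 2.99%. The promoter itself went from 4.64% to 0.440% and from 3.66% to 0.677%, and the 14 bins upstream of it from 56.8% to 37.8% and from 49.9% to 37.0%. Both populations were lower at P21 in all of these stretches, and differentiated cells had more called losses (14) than ISCs (9) among the 135 bins, a difference that was not tested. Over all bins too, losses were more frequent in differentiated cells (1.86%) than in ISCs (1.48%). The body of Nr1i2 had 13087 calls at P0 and 10574 at P21 in differentiated cells, against 8692 and 9038 in ISCs.

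Ppara (chromosome 15, plus strand) encodes PPARα, a fatty acid sensor that drives fatty acid oxidation. Its 7 shared losses all lay in intron 2. The 2 adjacent bins at 85604801 to 85605200 went from 82.6% to 40.3% in ISCs and from 63.7% to 46.5% in differentiated cells. The difference of differentiated cells from ISCs in this run was -18.9 points at P0 (-25.3 to -11.6) and 6.20 points at P21 (-1.21 to 13.5). The bin at 85607201 fell from 64.3% to 19.7% and from 55.1% to 20.7%, and the bin at 85599401 changed by -38.5 points (ISCs) and -41.4 points (differentiated cells). Among the shared single bins of Ppara these had the largest losses in both populations. The bin at 85603001 fell from 35.8% to 4.46% and from 20.5% to 4.85%, the bin at 85574001 from 61.1% to 34.5% and from 55.5% to 34.8%, and the bin at 85579601 from 75.3% to 57.2% and from 69.0% to 42.4%. The promoter island stayed at 3.23% or below in all libraries.

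Pparg (chromosome 6, plus strand) encodes PPARγ, which is abundant in the epithelium of the colon. Its 8 shared bins were all losses, and none of its 142 bins was a shared gain. The largest was the run at 115347601 to 115348000, in an intron of the longer transcript, whose first bin is printed above. The run went from 71.1% to 5.88% in ISCs, and differentiated cells went from 78.4% to 10.2%. Changes of -65.2 points in ISCs (-72.6 to -55.7) and -68.2 points in differentiated cells (-74.9 to -59.2) made it the largest loss among the shared runs outside Vdr. In the same transcript the bin at 115317601 fell from 65.8% to 24.3% and from 63.1% to 13.1%.

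A further 5 Pparg losses lay between intron 4 and intron 6. At exon 5 the bin at 115413201, with 103 coding bases, fell from 22.4% and 25.8% to 0% in both populations (up to 3.70% and 2.50% allowed). In intron 4 the bin at 115412801 fell from 70.9% to 40.6% in ISCs and from 69.3% to 39.8% in differentiated cells. In intron 5 the bin at 115416001 fell from 67.2% to 7.89% and from 45.8% to 17.1%, and the bin at 115414601 from 56.5% to 3.12% and from 44.1% to 3.70%. In intron 6 the bin at 115427401 fell from 81.5% to 58.9% and from 82.6% to 57.0%. The island at the upstream start stayed between 1.24% and 4.35%. The promoter of the main transcript, with 2 tested bins, stayed between 77.8% and 84.6%. Which of these starts the cells use was not examined.

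Rxra (chromosome 2, plus strand) encodes the retinoid X receptor α, the partner with which the receptors for thyroid hormone, vitamin D, bile acids and fatty acids pair. It had the smallest share of mDMRs in ISCs, 5 of 272 bins (1.84%, below the 2.55% of all bins), and 13 (4.78%, above the 2.85% of all bins) in differentiated cells. Whether the populations differed in this was not tested. Differentiated cells had more calls in the gene body (31177 at P0 and 25277 at P21) than ISCs (15044 and 16030). A gain and a loss lay side by side in intron 2. The bin at 27595401 rose from 48.1% to 79.1% in ISCs and from 59.2% to 76.4% in differentiated cells, while the 2 bins at 27595801 to 27596200, 200 bp further on, fell from 31.5% to 9.56% and from 34.8% to 7.65%. In the coding part of the last exon the bin at 27615001 fell from 74.6% to 57.0% and from 75.9% to 56.2%. The promoter island stayed between 0.305% and 0.766% in the 4 libraries.

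Nr5a2 (chromosome 1, minus strand) encodes LRH-1, a receptor linked to renewal of the crypt and to local glucocorticoid synthesis. Its main shared loss was the run at 138812001 to 138812400 in intron 6, printed in part above. The level went from 49.9% to 7.60% in ISCs and from 39.1% to 5.26% in differentiated cells, with adjusted p values of the 2 bins between 5.39e-28 and 9.33e-07 (Fisher's exact test). Elsewhere in this intron the bin at 138808601 fell from 46.2% to 9.46% and from 45.1% to 16.7%, and the bin at 138827401 from 73.3% to 30.7% and from 63.0% to 32.0%. In introns 7 and 8 the bin at 138785801 fell from 72.4% to 25.7% and from 62.5% to 37.0%, and the bin at 138765601 changed by -22.1 points (ISCs) and -45.8 points (differentiated cells). Whether the sizes of these losses differed between the populations was not tested. A bin of intron 5, at 138839201, rose from 26.9% to 55.6% and from 26.9% to 70.3%. The start of a shorter transcript at 138850207 was low throughout, between 1.41% and 3.47%. The main promoter had only 1 tested bin, at 4.42% in ISCs at P0 and 0% in the other 3 libraries (up to 2.86% to 3.80% allowed).

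Only 4 runs of adjacent bins were called in 1 population with none of their bins called in the other. In Thrb the 2 bins at 18575401 to 18575800 went from 66.7% to 33.6% in ISCs, where they were called, and from 71.4% to 53.1% in differentiated cells. The other 3 runs were called in differentiated cells. They were the 2 bins of Thrb at 18712001 to 18712400 (from 69.1% to 44.2%, with 70.6% and 48.1% in ISCs), of Vdr intron 1 at 97726801 to 97727200 (from 74.5% to 35.4%, with 65.4% and 44.6% in ISCs) and upstream of Nr1i2 at 38298801 to 38299200 (from 37.4% to 6.67%, with a change of -13.2 points in ISCs). In all 4 runs the other population was lower at P21 too.

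**Figure D3:**
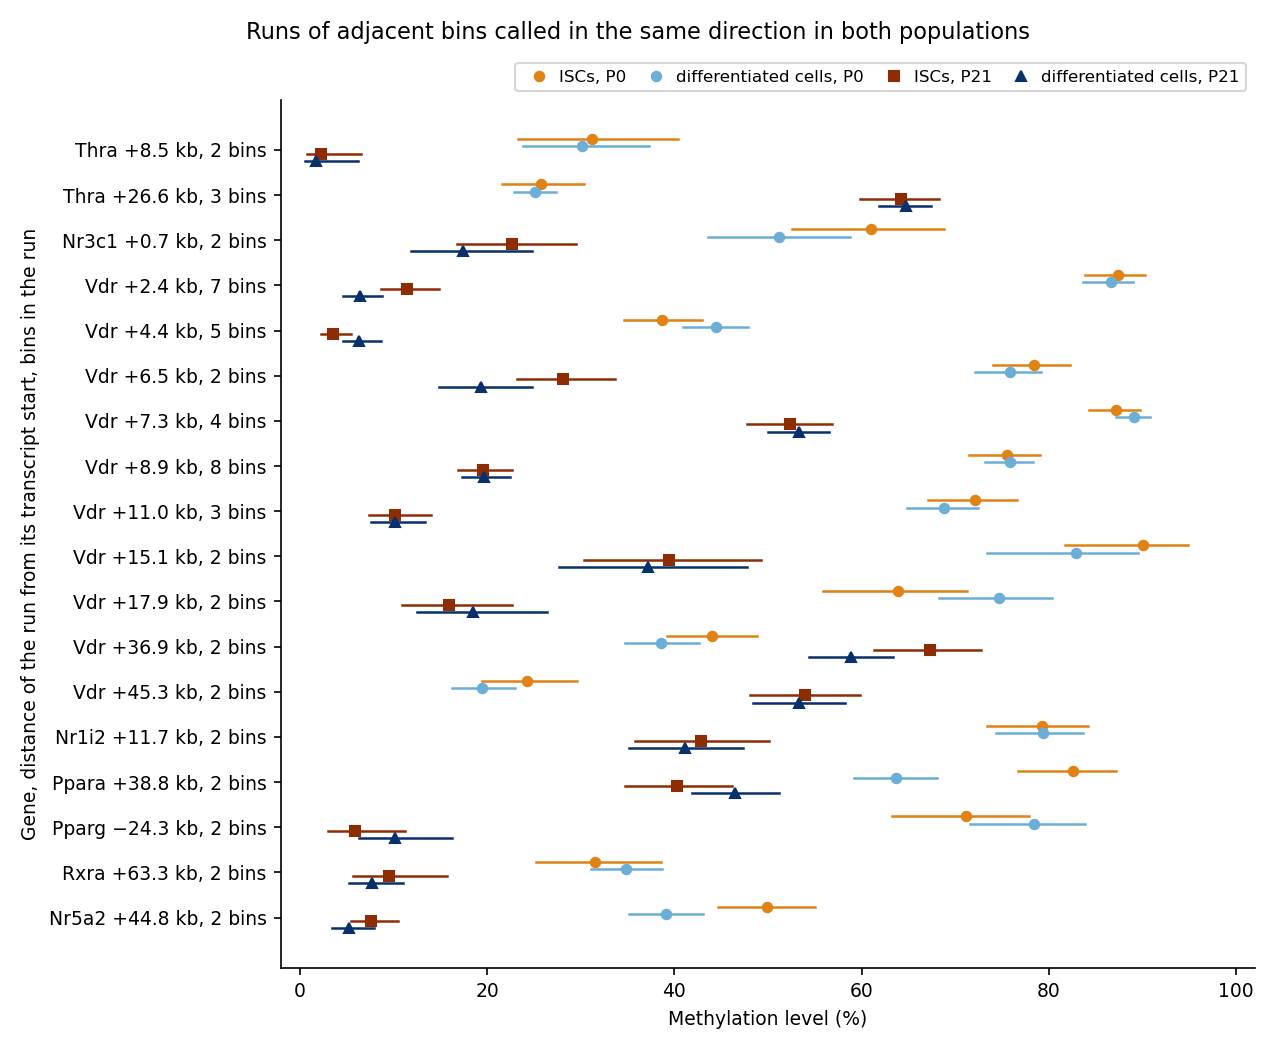
Methylation level, in percent, of the 18 runs of at least 2 adjacent bins called in the same direction in both populations, with 95% Wilson intervals for counting error, in the 4 libraries. Each line gives the gene, the distance of the run from the start of the main transcript and its number of bins. The P21 symbols lie to the left of the P0 symbols in all runs except the last exon of Thra (25.7% to 64.2% in ISCs) and the 2 most distal Vdr runs, where they lie to the right.

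Summed over whole regions, most changes were smaller than those of the stretches above. The Pparg body changed by -8.22 points in ISCs and -5.18 points in differentiated cells. The Nr1h4 last exon changed by 9.45 points in ISCs and 2.60 points in differentiated cells. The median change of the 10 promoters was -2.69 points in ISCs and -0.0128 points in differentiated cells, against -0.0515 and 0.0858 points over 20490 genes. With the ends of the gene record as starts, the median in ISCs was -0.418 points. The median change of the gene bodies was -2.85 points in ISCs and -1.67 points in differentiated cells, against -0.147 and -0.406 points over 17617 genes. Bodies were lower at P21 in 7 of the 10 genes in both populations, from -9.68 points in Vdr to 1.37 points in Rxra in ISCs. The last exons of 9 genes had a median change of 0.642 points in ISCs and 2.0 points in differentiated cells, against 0.325 and 0.164 over 16617 genes, and only that of Thra moved by more than 10 points. The regional levels pool all calls of a region, so bins with many calls weigh more.

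**Figure D4:**
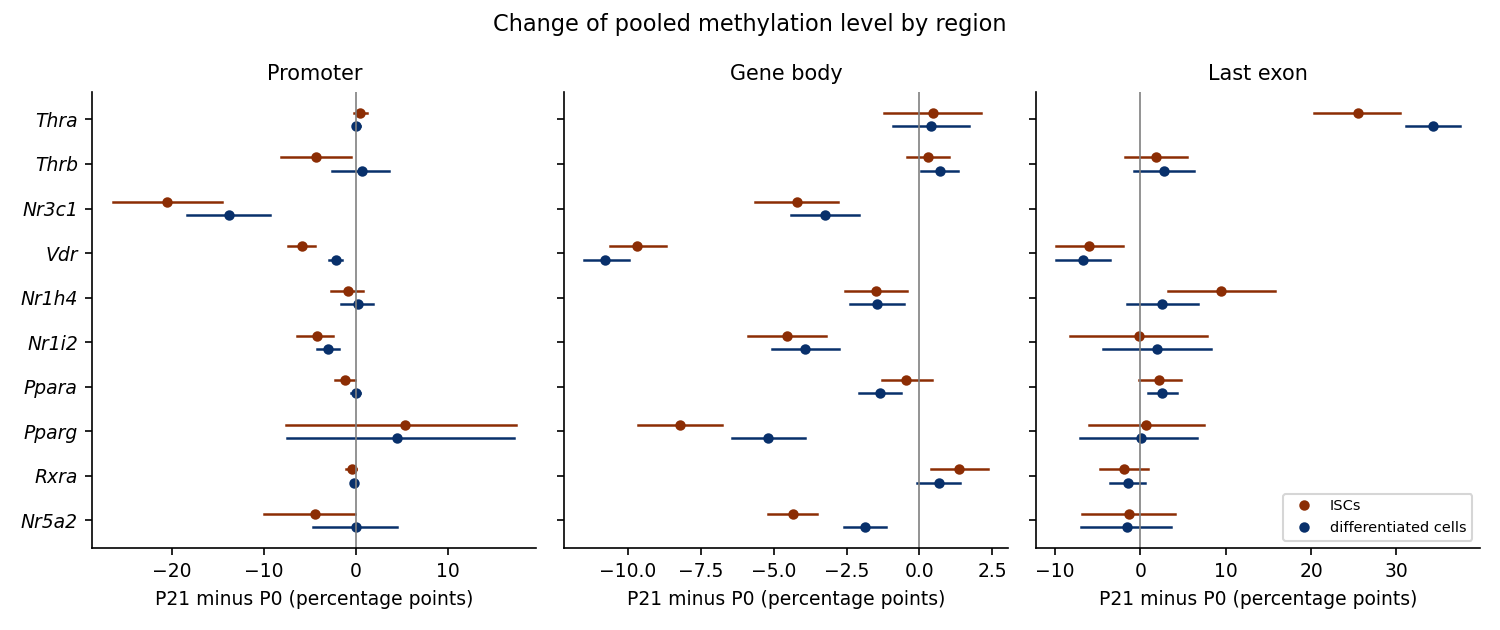
Change of the pooled methylation level from P0 to P21, in percentage points, for the promoter, body and last exon of each gene, with 95% Newcombe intervals for counting error, in ISCs and differentiated cells. The scale differs between panels. Nr3c1 in the promoter panel (-20.5 points in ISCs), Vdr in the body panel (-9.68 points) and Thra in the last-exon panel (25.5 points) stand furthest from 0.

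Fewer bins differed between the populations than between the ages. Bins that differed between differentiated cells and ISCs of the same age (dDMRs, by the same test and limit) numbered 10 at P0 (0.455%, against 0.508% of all bins) and 4 at P21 (0.182%, against 0.182%), at the background share. None lay in a promoter or a last exon. The mean level of the 2198 bins went from 71.1% to 68.4% in ISCs, and differentiated cells went from 70.5% to 68.5%. At P0 the largest dDMR was in Nr1h4, in the bin at 88981801, where ISCs had 78.3% over 23 calls against 8.33% over 36 calls in differentiated cells. At P21 the largest dDMR was in Thrb, in the bin at 18576001, with 9.41% in ISCs and 52.7% in differentiated cells. It was also a loss in ISCs, from 66.7%, and hardly moved in differentiated cells, from 56.9%.

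**Figure D5:**
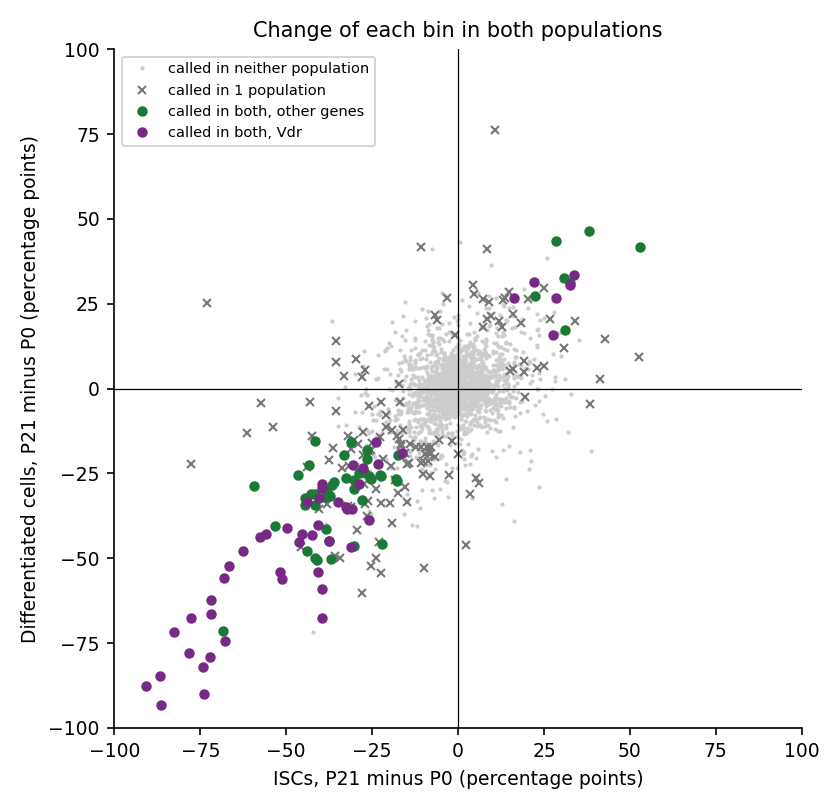
Change from P0 to P21 of each of the 2198 bins, in percentage points, in ISCs (horizontal axis) and differentiated cells (vertical axis). Purple circles are bins of Vdr called in both populations (44 losses and 6 gains), green circles are such bins of the other 9 genes (41 losses and 7 gains), crosses were called in 1 population and grey points in neither. The purple circles reach furthest into the lower left corner.

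Other genes of the same pathways gave a setting for these values, from lists that were chosen with earlier results known. Over all bins, mDMRs made up 2.55% in ISCs and 2.85% in differentiated cells, shared losses 0.673% and shared gains 0.255%, and the lists are to be read against these shares. Among 37 other nuclear receptor genes measured, 3.40% of bins were mDMRs in ISCs and 3.88% in differentiated cells, with 101 shared losses (1.13%) and 42 shared gains (0.470%) in 8934 bins. The genes with the most shared bins were Esrrg (26 of 1502 bins, of which 17 were gains), Ppard (23 of 285, with 22 losses), Nr2e3 (17 of 72, all losses) and Rora (17 of 1866, with 15 losses), and the share of Rora was no higher than that over all bins. At Ppard, which encodes the fatty acid receptor PPARδ, the shared bins went from a pooled level of 63.6% to 22.9% in ISCs, and differentiated cells went from 56.8% to 19.6%.

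Among 29 receptor target genes, 4.30% of bins were mDMRs in ISCs and 5.34% in differentiated cells, with 61 shared losses (1.99%) and 8 shared gains (0.261%, near that of all bins) in 3071 bins. Cpt1a, which brings fatty acids into mitochondria, had 9 shared losses among 200 bins. Their level went from 56.3% to 16.5% in ISCs and from 58.9% to 16.9% in differentiated cells. Zbtb16 had 10 shared bins of 614, 8 of them losses, and Fkbp5, a glucocorticoid target, had 7 of 340, with 4 losses. The 13 coregulator genes had 34 shared losses (0.960%) and 7 gains (0.198%, below that of all bins) in 3543 bins. Among them were bins of Nrip1 (7 of 282), Ppargc1a (6 of 181) and Ppargc1b (5 of 329). The 17 genes of ligand handling had 6 shared losses (0.761%, near the 0.673% of all bins) and 1 gain (0.127%, below the 0.255% of all bins) in 788 bins. Of the losses, 3 were among the 56 bins of Dio1, a deiodinase that converts thyroid hormone.

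The 4 libraries held between 1023427645 and 1188114423 CpG calls in all, and the median bin of the 10 genes had between 55.0 and 86.0 calls a library. Promoters of 8 of 9 epithelial marker genes were at 18.5% or below in the 4 libraries, with Krt20 between 51.4% and 55.4%. Those of 6 immune cell genes lay between 61.7% and 89.0%, and those of the endothelial genes Pecam1 and Cdh5 between 69.1% and 80.4%, at both ages. Col1a2 and Pdgfra, markers of mesenchyme, were low in all libraries (0.248% to 8.55%), Acta2 lay between 44.1% and 51.8%, and Col3a1 had 1 tested bin, at 26.0% to 27.6% at P0 and 7.84% to 12.5% at P21. The part of other cell types in the results was not tested. In bulk DNA, a change of methylation within cells and a change in the mix of cells cannot be told apart, and age cannot be told apart from the pool of animals, since each age had 1 pool. The study's methods describe 1 pool of animals for each age and name no other animals for the differentiated cells. Values alike in ISCs and differentiated cells therefore cannot be taken as independent of each other.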

How the data were processed

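Adaptor-ligated DNA was treated with bisulfite and sequenced as paired-end reads, and, per the labels and the methods of the study, the authors mapped the reads to mm9 with Bismark and Bowtie. Their versions, and whether duplicates were removed, are not stated in these sources. The files as the authors deposited them hold, per CpG cytosine and library, a total count and a methylated count of calls. Here the 2 strands were added up in 200-bp bins. An autosomal bin was tested if it had 2 or more CpGs and 10 or more calls in every library, by a two-sided Fisher's exact test with Benjamini-Hochberg adjustment over all 4076373 such bins. The bin size and the 15-point limit followed the study, and the test was added. Calls at several CpGs of 1 read were counted as separate calls, so the test can call too many bins and the intervals can be too narrow. Any duplicates that remained would add to this. Positions off the reference CpGs (0.469% to 0.86% of a library) were dropped. The CpGs of a region were pooled for its level, with Wilson intervals for levels and Newcombe intervals for differences at 95%, which cover counting error only. Limits beside a level of 0 are 3 calls of the total, and those printed are lower than the Wilson bound. Promoters reached 1 kb to either side of the start of the main transcript, and the promoter took precedence over the last exon and the last exon over the body. CpG islands were regions where windows of 500 bp held at least 25 CpGs. Python 3.11.15, NumPy 2.4.6, SciPy 1.17.1 and Numba 0.67.0 were used, and the calling was tested on simulated data. Named bins were all those called in the same direction in both populations, with single bins of Vdr intron 1 given by their range. Also named were runs of adjacent bins called in 1 population, the largest dDMR of each age and bins with opposite changes. The last 2 kinds were chosen after their values were seen. Up to 4 genes of each pathway list were named. The genes, the lists and this rule were chosen with earlier results of these data known. X-linked genes of those lists were not tested, and some genes of the lists are not reported here by name. Alternatives were minima of 20 calls and of 1 and 4 CpGs, other limits, thinned calls, shifted bins, means of bin levels and another gene model.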

Additional observations from a re-analysis of the deposited data

Results flagged for a closer look

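A bin of Nr5a2, in intron 6 at 138812401, was called as an mDMR in ISCs. It changed by more than 15 points in opposite directions in the 2 populations, with 1 library a group. ISCs went from 91.5% (59 calls) to 18.5% (54 calls), a change of -73.0 points that was called (adjusted p = 9.26e-13, Fisher's exact test), while differentiated cells went from 38.5% (13 calls) to 63.6% (22 calls), a change of 25.2 points that was not called (adjusted p = 0.627, Fisher's exact test). The difference between the populations in this change was not tested. The bin adjoins the run of 2 bins that fell in both populations, and the differentiated cells had few calls here. Only bins called as mDMRs in at least 1 population were searched for this. An Rxra bin at 27568401, called in neither, changed by -19.1 points in ISCs and 19.5 points in differentiated cells.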

How the results depend on the processing

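With at least 4 CpGs a bin, 84 bins were mDMRs in ISCs, 88 in differentiated cells and 58 in both, and 4 were dDMRs at P0, since 778 bins remained. With a limit of more than 30 points the mDMRs were 101, 88 and 58, and the dDMRs 4 at P0 and 2 at P21. With more than 15 points and no test they were 392, 383 and 191, and 221 and 170. With calls thinned to the lowest library, differentiated cells had 95 mDMRs, 62 were shared, and 2 and 1 were dDMRs. Losses were then 4.14% of the bins in ISCs and 3.64% in differentiated cells, and gains 0.864% and 0.682%. The order of the 2 populations in the main counts, with more mDMRs in differentiated cells, was thus not kept. Over all bins, losses after thinning were 0.973% in ISCs and 0.869% in differentiated cells. Without Vdr, chosen after seeing the data, the mDMRs were 97, 110 and 48. The share of losses was above that of all bins under each alternative run on all 10 genes, from 3.46% against 0.811% (differentiated cells, 30 points) to 12.2% against 7.14% (ISCs, no test).

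With the ends of the gene record as start and last exon, the promoter changes were 7.01 points in ISCs and 4.33 points in differentiated cells for Vdr, and in ISCs 0.0953 for Nr3c1 and 0.0918 for Thrb, all with intervals that include 0, because other starts were measured. The median promoter change in ISCs was then -0.418 points. With at least 4 CpGs the Nr1h4 body change in ISCs was 0.167 points. The other medians moved by no more than the typical counting error of a gene's change, taken from the widths of the genes' own 95% intervals. No paired analysis was possible because each group had 1 library. Depth limited single bins most, with as few as 10 calls, and no value here measures the spread between animals.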
